A study of Mus musculus with 14 samples.

Results

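The comparison described here is the change of the dextran sodium sulfate (DSS) effect on the mouse ovary transcriptome between 2 time points: the difference between DSS-treated and control ovaries at day 89 minus the same difference at day 7, called the interaction below. It used all 14 of the 14 RNA-seq libraries of the series, chosen by their labels and not by any measured value. All animals were female wild-type C57BL/6J mice. The groups were controls at day 7, the end of the DSS exposure (3 libraries, replicates 10, 51 and 53), DSS-treated mice at day 7 (4 libraries, 75, 80, 81 and 82), controls at day 89, after a rest period (3 libraries, R123, R124 and R126), and mice that had received DSS, at day 89 (4 libraries, R29, R38, R78 and R89). Values per library are always given in this order. The labels give no DSS dose, age, estrous stage or hour of collection, and nothing states that the libraries came from separate animals, so each p-value reflects how much these libraries vary, and that variation may be technical. The labels name ovary as the tissue, whereas the extraction protocol speaks of retinas: of 16 photoreceptor genes, only Rom1 was abundant enough to be tested, whereas all 30 oocyte, 18 granulosa and 16 luteal genes listed were tested.

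DSS in drinking water damages the colonic epithelium and gives an acute colitis with systemic inflammation that largely resolves after withdrawal. The ovary is a distant organ that can respond to circulating cytokines, to reduced food intake and to altered gonadotropins, and it also remodels with every estrous cycle and with age. An interaction separates a difference that was present while the colitis was acute and gone after the rest from one that persisted, turned around or was seen only late.

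Expression is given in FPKM (fragments scaled by gene length and library size), and each effect is a difference of group means of log2(FPKM + 1), which understates the change of low genes. A negative interaction means that the DSS effect was lower at day 89 than at day 7. Of 18006 genes tested with limma, 0 reached a Benjamini-Hochberg adjusted p of 0.05 for the interaction (0% of tested genes), and the smallest adjusted p was 0.254. The same test on recovered read counts (limma-voom) also called 0 genes, with 1513 at an unadjusted p under 0.05. Other settings did call genes: limma called 41 without DSS replicate 75 of day 7, 2 without a filter on low values, 3 without the 3 libraries of high mitochondrial share and 4226 with estimated sample weights. At an unadjusted p under 0.05 there were 1521 genes, 8.45% of those tested: 786 with a higher DSS effect at day 89 (4.37%) and 735 with a lower one (4.08%). The standard error of the interaction had a median of 0.28 on the log2 scale, so that differences of the size seen for most genes (median absolute value 0.245) could not be told from the spread between libraries. For this reason the genes below are described by their values, and none of them is a call at the adjusted threshold in the fit over all libraries.

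The 2 DSS effects share no library, and across genes they were only weakly related. At day 7 limma called 6 genes at an adjusted p under 0.05, 1 higher and 5 lower, and 2889 were at an unadjusted p under 0.05 (16%). At day 89 it called 1 gene, the predicted Gm49592, and 824 were at that unadjusted level (4.58%). The Spearman correlation of both effects over the 18006 genes was 0.12 (Pearson 0.137), and 53.8% of the genes whose effects were not 0 had an equal sign at both days; genes are not independent replicates. The sign of this relation depended on single libraries: rho was -0.0857 without control replicate 51 of day 7, -0.0596 without control replicate R124 of day 89 and 0.251 without control replicate 10 of day 7.

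**Figure D1:**
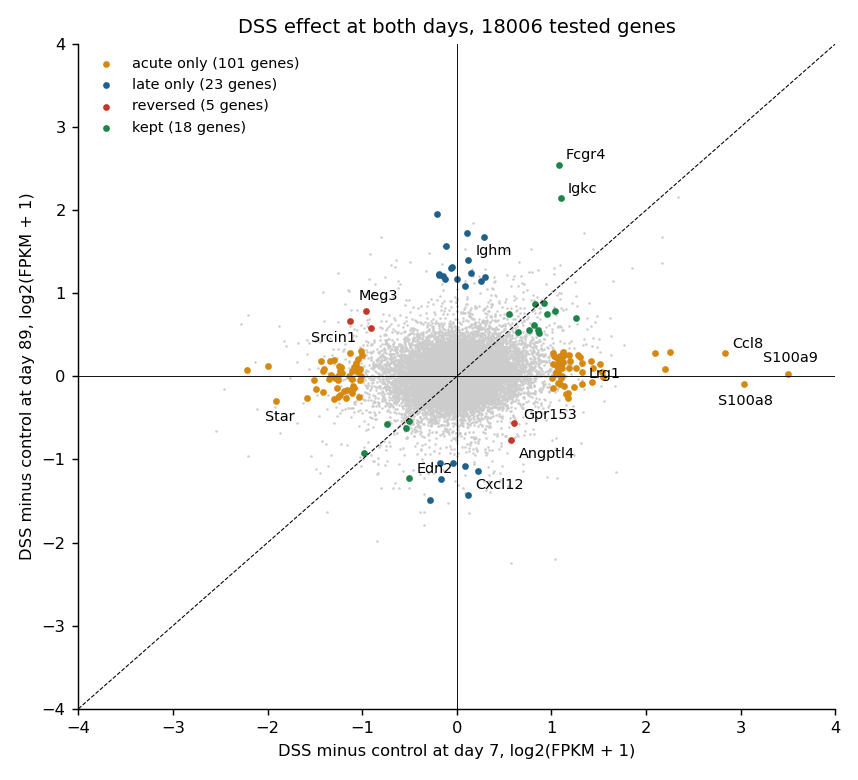
DSS minus control on the log2(FPKM + 1) scale at day 7 (horizontal axis) and at day 89 (vertical axis) for the 18006 tested genes, one point each, with 4 patterns in colour. The cloud has no clear slope along the dashed line of equal effects, the acute only genes lie along the horizontal axis, and the 5 reversed genes lie at the upper left and lower right.

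Genes were sorted by whether the DSS and control libraries overlapped at each day. No overlap was seen at day 7 for 1124 genes with DSS higher (6.24%) and 1057 with DSS lower (5.87%), and at day 89 for 728 (4.04%) and 765 (4.25%). No overlap at both days was seen for 56 genes in opposite directions (0.311%) and for 86 in equal directions (0.478%). Among these, 4 patterns were set apart by size. Acute only genes had no overlap and an absolute difference of at least 1 at day 7 and a difference under 0.3 at day 89, late only genes were the mirror case, and reversed and kept genes had no overlap at either day and an absolute difference of at least 0.5 at both, with opposite or equal signs. There were 101 acute only genes (52 higher, 49 lower), 23 late only genes (16 higher, 7 lower), 5 reversed genes and 18 kept genes (13 higher, 5 lower). These were 0.561%, 0.128%, 0.0278% and 0.1% of the tested genes, in that order.

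Reversal of the DSS effect was led by Angptl4 (chr17:33773750-33781830 in GRCm38), a secreted inhibitor of lipoprotein lipase that is known for its response to fasting. At day 7 it stood at 22.5, 23.2 and 18.4 FPKM in the control libraries and at 34.4, 28.3, 31 and 35.6 in the DSS libraries. At day 89 the controls held 55.5, 48.2 and 50.7 FPKM and the DSS libraries 26.1, 34.6, 25.2 and 34.9. Every DSS library was above every control at day 7 and below every control at day 89. The difference was 0.58 at day 7 and -0.76 at day 89, an interaction of -1.34 ± 0.21 (SE, 95% interval -1.80 to -0.89), with the smallest interaction p of all tested genes (limma adjusted p = 0.254). The control mean differed by 1.24 between the days and the DSS mean by -0.11. The interaction was -1.19 without the 3 day 7 libraries in which mitochondrial transcripts took a high share of reads (control replicates 10 and 53 and DSS replicate 75).

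Gpr153, an orphan G protein-coupled receptor, showed the same order with control levels far apart between the days. Its control libraries held 3.35, 3.20 and 3.23 FPKM at day 7 and 15.2, 16 and 12.3 at day 89. The DSS libraries held 5.36, 6.40, 4.57 and 5.76 and then 8.44, 11.2, 7.91 and 10.7 FPKM. DSS libraries thus lay above the tight day 7 controls and below the day 89 controls without overlap (difference 0.61 and -0.56, interaction -1.16 ± 0.21 SE, limma adjusted p = 0.281).

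Meg3, an imprinted long non-coding RNA expressed from the maternal allele, went the other way. Control libraries held 6.59, 4.32 and 7.88 FPKM at day 7 against 3.53, 2.16, 2.19 and 2.90 in the DSS libraries, and 1.66, 2.10 and 1.90 at day 89 against 2.77, 7.75, 2.55 and 4.18. DSS libraries were all lower at day 7 and all higher at day 89, where R38 was the highest (difference -0.96 and 0.79, interaction 1.75 ± 0.39 SE, limma adjusted p = 0.419). The other two reversed genes, Gm48293 and 2410080I02Rik, carry no functional name, were also lower at day 7 and higher at day 89, and had interactions of 1.81 and 1.49; 2410080I02Rik was listed at 0 in the 3 controls of day 89. In all 5 reversed genes the control mean moved more between the days than the DSS mean. The genes were picked on these same means and the share over all genes is not given, so this is a description only.

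Other genes with small interaction p-values missed the size limit for reversal or overlapped at 1 day. Cd276, which encodes the immune checkpoint protein B7-H3, had group means of 4.12 ± 0.667 FPKM (SD, n = 3) in controls and 6.56 ± 0.722 (SD, n = 4) in DSS libraries at day 7, and 8.01 ± 0.706 and 5.74 ± 0.233 at day 89. Its groups did not overlap at either day (difference 0.56, then -0.42). Bckdhb, a subunit of the branched-chain keto acid dehydrogenase, was the counterpart with DSS lower at day 7 and higher at day 89, again without overlap (difference -0.40, then 0.49, interaction 0.89 ± 0.17 SE, limma adjusted p = 0.316). Gpc1, a heparan sulfate proteoglycan of the cell surface, had an interaction of -1.79 ± 0.36 SE: 5.57, 7.81 and 6.76 FPKM in controls against 20.3, 18.5, 11.6 and 11 in DSS libraries at day 7, and 17.9, 38.6 and 28.9 against 15.6, 20.1, 13.8 and 14.6 at day 89. Its groups were apart at day 7 and overlapped at day 89. The remaining named genes with a lower effect at day 89 were Ppp1r16b, a regulatory subunit of protein phosphatase 1 (interaction -1.05), Polr2b, a large subunit of RNA polymerase II (-0.88), and Rtn4rl2, a receptor related to the Nogo receptor (-1.47). With a higher effect at day 89 were Irag1, a substrate of cGMP-dependent kinase at the inositol trisphosphate receptor (interaction 1.00), and Nxnl2, a thioredoxin-like protein (0.98).

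**Figure D2:**
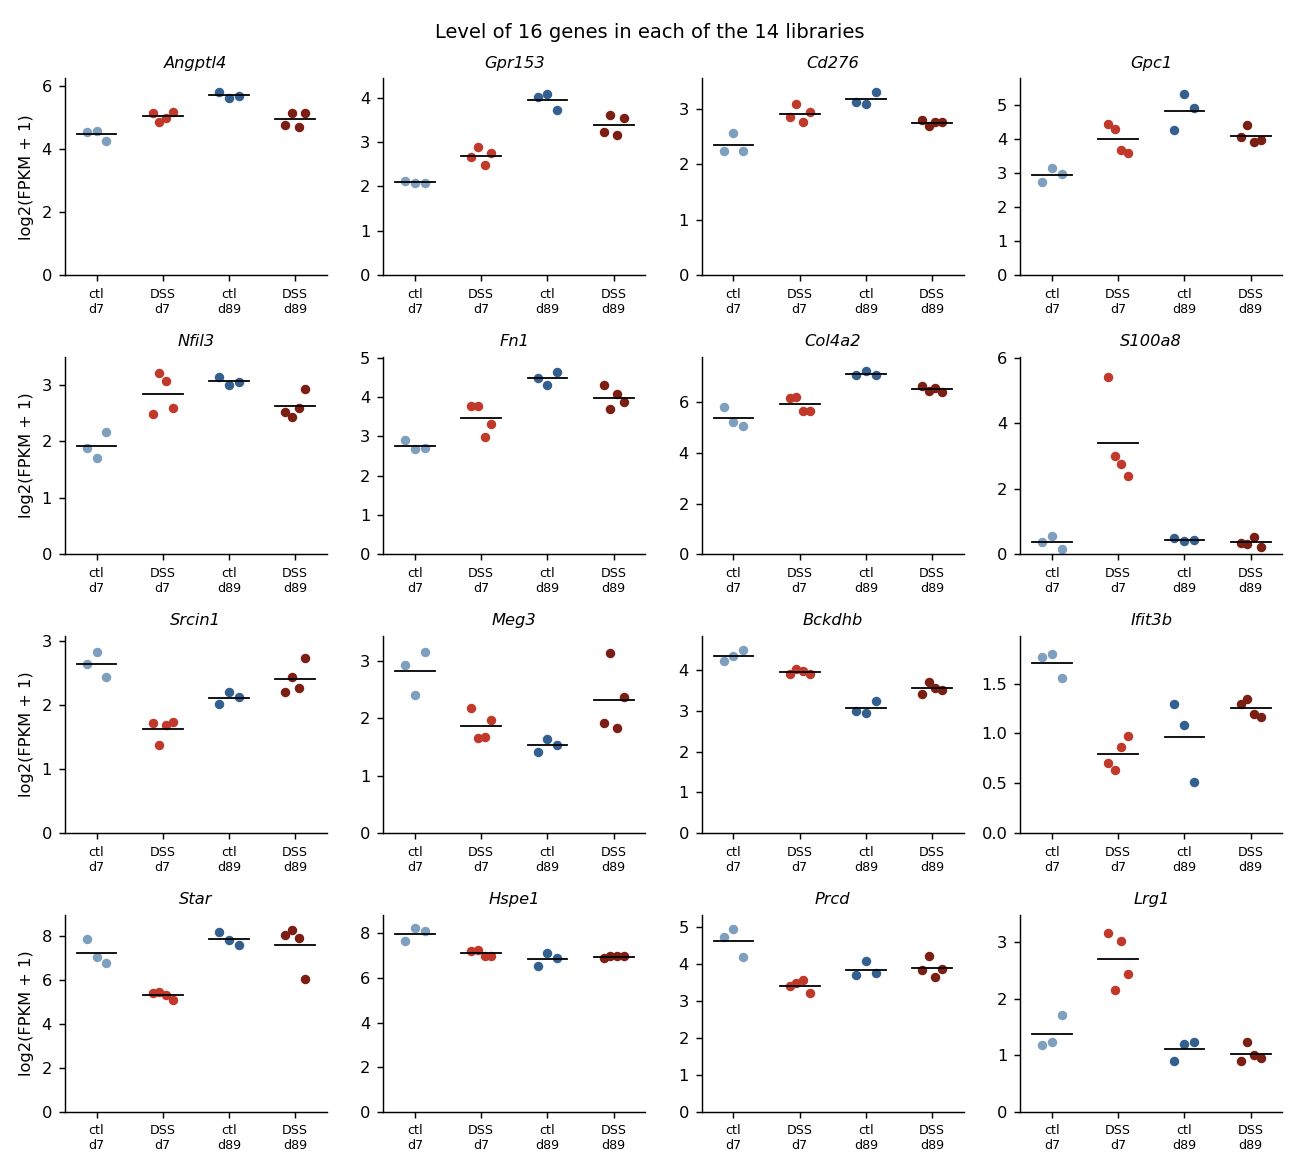
log2(FPKM + 1) of 16 genes in each of the 14 libraries (points), with the group mean as a bar; ctl is control, d7 and d89 are the days, and each panel has its own axis from 0. In Angptl4, Gpr153, Cd276 and Fn1 the DSS points lie above the controls at day 7 and below them at day 89, in Meg3 and Bckdhb the order is the opposite, and in S100a8 and Lrg1 the DSS points of day 7 alone stand apart.

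The 52 acute only genes with higher DSS values (0.289% of tested genes) included 4 of the neutrophil and acute-phase list. This count is a description only, because some of the 4 passed the filter through DSS libraries alone, as given below. S100a8, a subunit of the neutrophil protein calprotectin, stood at 0.288, 0.468 and 0.103 FPKM in controls and at 41.4, 6.91, 5.79 and 4.24 in DSS libraries at day 7. At day 89 it was back at 0.394, 0.325 and 0.352 FPKM in controls and 0.274, 0.248, 0.441 and 0.163 in DSS libraries. All 4 DSS libraries of day 7 were far above the other 10, and replicate 75 was the highest by a wide margin. The interaction was -3.12 ± 0.71 (SE, limma adjusted p = 0.419). Replicate 75 is also the DSS library with a high share of mitochondrial reads. Among the day 7 libraries of high mitochondrial share the difference was 5.15 (1 DSS library against 2 controls) and among the others 2.16 (3 against 1). The interaction without the 3 high-share libraries was -2.24. That fit has 1 control at day 7, so only its effect size is given. S100a8 reached 0.5 FPKM only in the DSS libraries of day 7, so it was tested because of the group in which it was high. S100a9, the partner subunit, had an interaction of -3.48 ± 0.89 SE, with 63.9, 7.81, 8.40 and 6.54 FPKM in the DSS libraries of day 7 and no value above 1.99 in any other library.

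Lrg1, a secreted leucine-rich glycoprotein of the acute phase, gave a less uneven picture. It held 1.28, 1.34 and 2.29 FPKM in controls and 8.01, 3.45, 7.13 and 4.44 in DSS libraries at day 7, and 0.854, 1.28 and 1.34 and 0.856, 1.35, 1.00 and 0.924 at day 89. The DSS libraries of day 7 were the 4 highest of all 14, and the day 89 groups overlapped (interaction -1.41 ± 0.33 SE, limma adjusted p = 0.419). Of the 22 neutrophil and acute-phase genes listed, 12 were tested; 5 had a lower effect at day 89 at an unadjusted p under 0.05 and 0 a higher one, against 4.08% and 4.37% of all genes. These were S100a8, S100a9, Lrg1, the resistin-like gene Retnlg (interaction -2.10) and the iron-siderophore binding protein Lcn2 (-1.16). Retnlg was listed at 0 in all 6 control libraries, and S100a8 reached 0.5 FPKM only in the DSS libraries of day 7. Both thus passed the filter through DSS libraries alone, so the count of 5 is a description only. The list median was 0.41 at day 7, -0.06 at day 89 and -0.17 for the interaction. Csf3r, the receptor for granulocyte colony-stimulating factor, did not share the pattern (difference 0.66 at day 7 and 0.70 at day 89), and the granule genes Ngp, Camp, Elane and Mpo were too low to be tested. Blood markers stood apart at day 7 in the same libraries: the level of the 7 erythrocyte genes was 0.96 to 1.73 in DSS libraries and -0.90 to 0.61 in controls, and their summed FPKM 431 to 759 against 73.1 to 328. The part of blood in the neutrophil values was not tested.

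Monocyte chemoattractants behaved in a similar way. Ccl8 held 0.912, 2.43 and 2.11 FPKM in controls and 25.7, 10.6, 34.4 and 12.1 in DSS libraries at day 7, against 3.96, 1.55 and 1.67 and 2.23, 11.1, 2.87 and 0.554 at day 89. The day 7 groups were apart and the day 89 groups overlapped, with R38 high among the DSS libraries (interaction -2.55 ± 0.80 SE, limma adjusted p = 0.517). For Ccl2 the difference was 1.33 at day 7 and -0.43 at day 89, and at day 7 its groups overlapped through replicate 75, which stood at the control level. Of 16 cytokine and chemokine genes tested of 22 listed, 5 had a lower effect at day 89 at an unadjusted p under 0.05 (4.08% of all genes) and 0 a higher one (list median 0.34, then 0.22, interaction -0.13). Further acute only genes with higher DSS values included the neutrophil chemoattractant Cxcl1, Ccl9, the chitinase-like Chil3 and the inhibitory Fc receptor Fcgr2b. In bulk tissue, more cells of a type and more RNA per cell cannot be told apart.

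Macrophage genes mostly stood higher with DSS at both days. Of 19 macrophage genes, 18 were above 0 at day 7 and 17 at day 89, with medians of 0.56 and 0.41. The interaction was below 0 for 16 of 19 (median -0.34), but none had an unadjusted p under 0.05. C1qb, a chain of the first complement component made by macrophages, had differences of 1.40 and 0.89, and Cd68, a lysosomal membrane protein, 1.66 and 1.15. Of 17 complement genes tested, 1 had a higher and 2 a lower effect at day 89 at that level, against 4.37% and 4.08% of all genes. C4b was acute only (difference 1.41, then 0.18), the terminal component C7 had an interaction of -1.58, and C2 one of 0.80. The complement median was 0.47 at day 7, 0.27 at day 89 and -0.04 for the interaction.

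The immunoglobulin genes Igkc and Ighm had interactions above 0. Igkc, the kappa light chain constant region, held 5.38, 3.15 and 6.61 FPKM in controls and 9.91, 17.1, 11 and 9.48 in DSS libraries at day 7, and 2.26, 5.09 and 4.02 against 18, 35, 18.4 and 12.3 at day 89. Its DSS libraries were above all controls at both days, with the wider gap at day 89 (difference 1.10, then 2.15, interaction 1.05 ± 0.46 SE, limma adjusted p = 0.574). Ighm, the IgM heavy chain, was a late only gene: 6.11, 5.42 and 5.48 FPKM against 9.37, 5.61, 5.44 and 5.26 at day 7, and 3.74, 2.81 and 2.69 against 28.7, 11.7, 4.90 and 4.86 at day 89. R29 was the highest day 89 library, and the lowest DSS libraries lay just above the controls (interaction 1.28 ± 0.61 SE, adjusted p = 0.598). All 13 B and plasma cell genes tested were above 0 at both days (medians 0.39 and 0.65). Their interactions were above 0 for 9 and below 0 for 4 (median 0.41, and 0.13 without the libraries of high mitochondrial share). At an unadjusted p under 0.05, 1 of 13 was higher, against 4.37% of all genes. Immunoglobulin constant regions are similar in sequence, and reads may have been split between them. The 13 T and NK cell genes had medians of 0.13 and 0.14 (interaction -0.06, 0 at an unadjusted p under 0.05).

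Most interferon-stimulated genes stood lower with DSS at day 7 and higher with DSS at day 89. Interferons act through cell surface receptors and kinases on transcription factors, some of which bind the interferon-stimulated response element in the promoters of these genes. Of 30 listed genes, all were tested; 26 were below 0 at day 7, 27 were above 0 at day 89, and 24 had exactly this order of signs, a combination held by 4133 of all 18006 genes (23.0%). The list median went from -0.32 to 0.23 (interaction 0.53, all tested genes -0.01). At an unadjusted p under 0.05, 11 of 30 had a higher effect at day 89, where 4.37% of all genes did, and 0 a lower one. Promoter sequences of 4 genes with this pattern are shown because they carry the response element core GAAANNGAAA, searched on both strands with overlapping matches allowed. Capitals mark the matches as they read on the gene's strand; a match on the other strand is shown there as its reverse complement. They are the 250 bases before the RefSeq start in GRCm38.p6: Ifit3b at chr19:34607707-34607956 (plus strand), Ifit1 at chr19:34640639-34640888 (plus), Isg15 at chr4:156200819-156201068 (minus) and Gbp3 at chr3:142559794-142560043 (plus). Gbp3 has another RefSeq start, and the 250 bases before that one (chr3:142560106-142560355) hold 0 matches and are not shown.
Ifit3b: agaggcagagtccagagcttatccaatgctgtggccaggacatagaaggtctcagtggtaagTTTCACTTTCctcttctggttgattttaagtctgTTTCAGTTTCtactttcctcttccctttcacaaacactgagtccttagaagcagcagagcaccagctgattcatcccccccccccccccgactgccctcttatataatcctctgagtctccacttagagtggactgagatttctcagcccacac
Ifit1: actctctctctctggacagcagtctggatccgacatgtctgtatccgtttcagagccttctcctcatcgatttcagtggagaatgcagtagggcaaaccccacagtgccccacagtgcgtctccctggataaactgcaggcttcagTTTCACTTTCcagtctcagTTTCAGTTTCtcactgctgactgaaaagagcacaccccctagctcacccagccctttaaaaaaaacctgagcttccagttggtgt
Isg15: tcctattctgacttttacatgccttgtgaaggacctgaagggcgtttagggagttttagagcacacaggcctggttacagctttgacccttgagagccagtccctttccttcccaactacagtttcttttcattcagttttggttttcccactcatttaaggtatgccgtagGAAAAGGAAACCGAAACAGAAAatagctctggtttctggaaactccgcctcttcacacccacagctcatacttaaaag
Gbp3: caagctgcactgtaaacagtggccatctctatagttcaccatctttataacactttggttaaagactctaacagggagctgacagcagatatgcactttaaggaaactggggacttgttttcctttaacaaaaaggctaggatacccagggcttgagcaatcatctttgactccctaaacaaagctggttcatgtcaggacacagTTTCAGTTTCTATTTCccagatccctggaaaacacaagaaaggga

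Within 250 bases before and 50 after the start, this core was found in 15 of the 23 interferon list genes that have a RefSeq window (65.2%), against 1079 of 27025 genes (3.99%). Genes of the list were picked for their known response to interferon, so the share describes the list and not its change. Of the 11 members with an unadjusted interaction p under 0.05, 6 of the 8 with a window held the core, and of the other members 9 of 15. A match is a description of these letters and does not show that a factor was bound.

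Ifit3b, one of the tetratricopeptide proteins induced by interferon, had the smallest interaction p of these genes, although it is not on the list of 30. It held 2.40, 2.49 and 1.94 FPKM in controls and 0.631, 0.551, 0.819 and 0.972 in DSS libraries at day 7, and 1.45, 1.13 and 0.427 against 1.46, 1.55, 1.29 and 1.24 at day 89. The day 7 groups did not overlap and the day 89 groups did, with R126 the lowest control (interaction 1.20 ± 0.25 SE, limma adjusted p = 0.316). Ifit3b is a near-identical copy of Ifit3 (interaction 1.20), and reads may be split between them; Ifit1, a distinct family member whose promoter is shown above, had differences of -0.88 and 0.31. Stat2 had an interaction of 0.73, Irf7, the regulator of late type I interferon production, 1.01, the ubiquitin-like modifier Isg15 0.97, and Ifi27, a mitochondrial interferon-induced protein, 1.01. Of the interferon-inducible GTPases, Gbp3 was acute only with lower DSS values (difference -1.04, then 0.09) and Igtp had an interaction of 0.79. Ifit2 had the only interaction below 0 (-0.06).

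The order held in both sets of day 7 libraries. The day 7 list median was -0.52 among the 3 day 7 libraries of high mitochondrial share and -0.23 among the other 4, and the interaction median was 0.48 without those 3. Without control replicate R126 of day 89 it was 0.37, the lowest of the alternatives run. At day 89 the control libraries were widely spread, with list levels (the mean of log2 values centred on each gene) from -0.41 to 0.16 against -0.10 to 0.31 in DSS libraries. At day 7 controls lay between 0.12 and 0.26 and DSS libraries between -0.23 and -0.01, with replicate 82 highest, so the groups were apart at day 7 and overlapped at day 89.

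**Figure D3:**
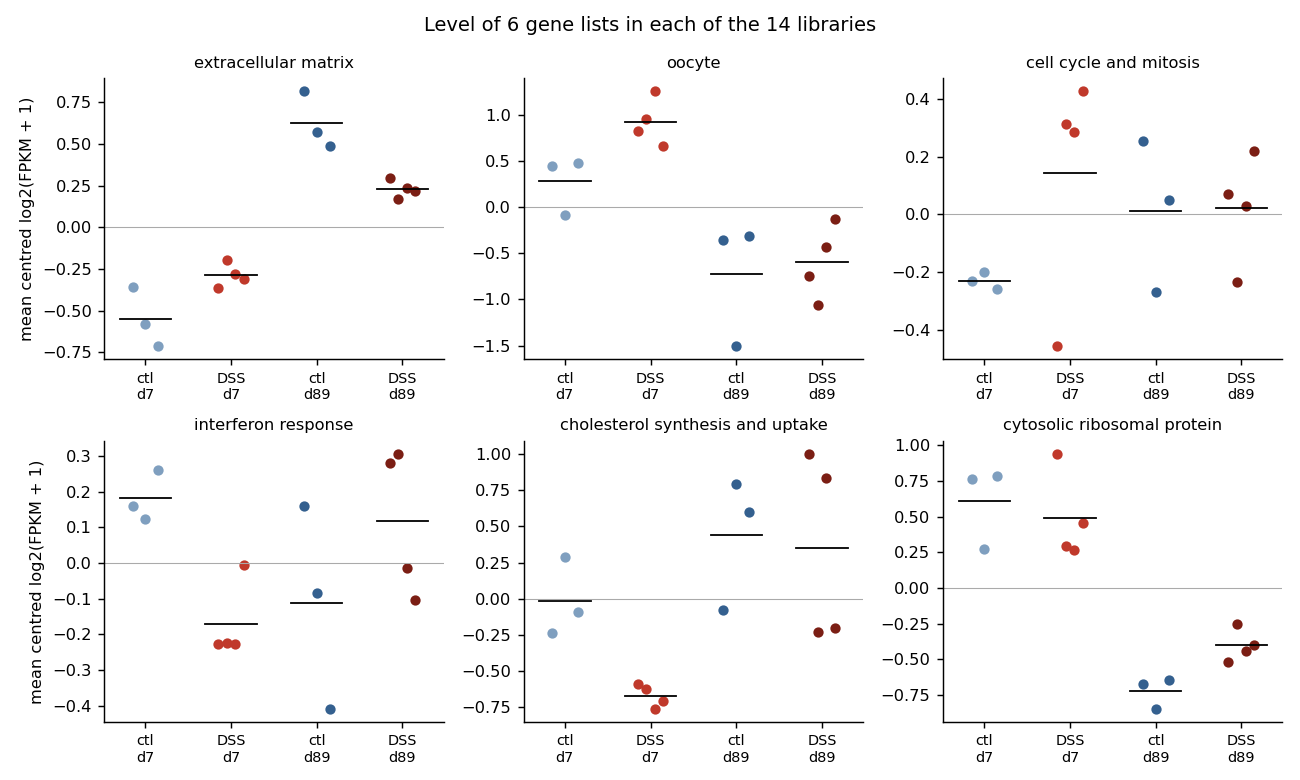
Level of 6 gene lists in each of the 14 libraries (points; the mean over tested members of log2(FPKM + 1) centred on each gene's mean over all libraries), with the group mean as a bar. For extracellular matrix the DSS libraries lie above most controls at day 7 and below all controls at day 89, interferon response shows DSS below all controls at day 7, and oocyte and cholesterol lists differ at day 7 while their day 89 groups overlap.

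Extracellular matrix genes gave the opposite order, DSS higher at day 7 and lower at day 89. Of 31 listed genes, all tested, 26 were above 0 at day 7, 29 below 0 at day 89, and 24 had this order of signs, as did 4132 of all 18006 genes (22.9%). The median was 0.23 at day 7 and -0.42 at day 89 (interaction -0.64). At an unadjusted p under 0.05, 15 of 31 had a lower effect at day 89, where 4.08% of all genes did, and 0 a higher one. The list stood higher at day 89 than at day 7 in both arms, by a median of 1.21 in controls and 0.54 in DSS libraries. The DSS libraries of day 89, at list levels of 0.17 to 0.29, were all below the controls, at 0.49 to 0.82. At day 7 they lay at -0.37 to -0.20 and overlapped the controls, at -0.71 to -0.36.

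Fn1, which encodes fibronectin, was the leading matrix gene. It held 6.51, 5.39 and 5.48 FPKM in controls and 12.6, 12.7, 6.86 and 8.96 in DSS libraries at day 7, and 21.5, 18.9 and 23.8 against 18.6, 11.9, 16 and 13.7 at day 89. DSS libraries were all higher at day 7 and all lower at day 89 (difference 0.70, then -0.49, interaction -1.19 ± 0.28 SE, limma adjusted p = 0.419). Basement membrane collagen IV followed. Col4a2 held 55.1, 36.8 and 32.4 FPKM in controls and 70.9, 73.9, 49.1 and 49 in DSS libraries at day 7, and 134, 150.0 and 134 against 99.8, 86.8, 94.5 and 84.4 at day 89. Its day 7 groups overlapped through control replicate 10, and its DSS libraries were all lower at day 89 (interaction -1.16 ± 0.28 SE, adjusted p = 0.419). Col4a1, the other chain of the same trimer, had differences of 0.39 at day 7 and -0.70 at day 89. The RefSeq starts of both genes lie 21 bases apart on opposite strands of chromosome 8 (11312826 and 11312805 in GRCm38.p6), and their promoter windows share 78 bases.

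Col18a1, the source of endostatin, had an interaction of -0.95, with DSS libraries all lower at day 89 (26.8, 30.1 and 31 FPKM in controls against 19.3, 20.4, 19.4 and 16.5). The collagen VI chains Col6a1 and Col6a2 had interactions of -1.29 and -0.99, the lysyl oxidase Loxl2, which cross-links collagen, -1.14, and the fibrillar Col1a1 and Col3a1 -0.99 and -0.99. The small proteoglycans did not share the order: Dcn had a difference of 0.12 at day 7 and 0.38 at day 89, Lum had -0.15 and -0.06, and Bgn was above 0 at both days (0.75 and 0.31). Sparc, a collagen-binding matricellular protein, was below 0 at both (-0.49 and -0.52). The interaction median of the list was -0.75 without the 3 libraries of high mitochondrial share. In the promoter windows, the GC box GGGCGG (both strands) was found in 12 of 18 matrix genes with a window (66.7%) against 38.2% of all genes. The CCAAT box was found in 8 of 18 (44.4%) against 41.1%. These shares describe the list and not its change, and a link to the interaction was not tested.

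The 7 late only genes with lower DSS values were led by Fbln2. Fbln2, a fibulin of elastic fibres and basement membranes, held 6.59, 12 and 9.56 FPKM in controls and 2.70, 3.68, 2.88 and 4.21 in DSS libraries at day 89, and 2.82, 4.51 and 4.35 against 7.17, 2.94, 2.02 and 2.51 at day 7. The day 89 groups were apart and at day 7 the DSS libraries spanned the controls (interaction -1.06 ± 0.42 SE, limma adjusted p = 0.564). Cxcl12, a chemokine of stromal cells, had 13.9, 45.8 and 42.1 FPKM in controls against 10.5, 9.17, 12.7 and 10.3 in DSS libraries at day 89 and a difference of 0.12 at day 7. Its DSS libraries were tight at day 89 while the controls ranged widely. They also included Bves, a Popeye domain membrane protein (difference -1.05 at day 89), the ligand Wnt7b and the matricellular Ccn4. The day 7 values of these genes moved with the mitochondrial share: for Cxcl12 the day 7 difference was 1.33 among the libraries of high share and -0.81 among the others, for Fbln2 0.85 and -0.67, and the part of this share in their interaction was not tested.

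The 16 late only genes with higher DSS values were a mixed set. Besides Ighm they held the ribosomal protein gene Rps27 (difference -0.13 at day 7 and 1.17 at day 89), the complex I subunit Ndufa12 (0.15 and 1.25) and the mitochondrially encoded mt-Cytb, mt-Nd4 and mt-Atp6. Over the 15 mitochondrially encoded genes, the day 7 median was 0.46 among libraries of high mitochondrial share and 1.03 among the others. Their interaction median was -0.10 without the high-share libraries, and the part of this share in the late only pattern was not tested. Of the 16, 5 were protein coding. In all 16 the control mean moved more between the days than the DSS mean, with a median of -2.19 in controls and -0.70 in DSS libraries. Only 3 of the 16 had an unadjusted interaction p under 0.05. Among the acute only genes the control mean moved more in 56 of 101, and 77 of 101 had an unadjusted interaction p under 0.05. The patterns were chosen on these values, so these counts are a description only.

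Acute only genes with lower DSS values were led by Srcin1, which encodes an inhibitor of SRC kinase signalling. It held 5.27, 6.12 and 4.44 FPKM in controls and 2.29, 1.60, 2.21 and 2.34 in DSS libraries at day 7, and 3.05, 3.60 and 3.35 against 3.63, 4.43, 3.81 and 5.64 at day 89. The DSS libraries were all lower at day 7 and all slightly higher at day 89 (difference -1.01, then 0.30, interaction 1.31 ± 0.22 SE, limma adjusted p = 0.254). Prcd, a small membrane protein best known from photoreceptor discs, held 25.7, 29.8 and 17.2 FPKM in controls and 9.53, 10.2, 10.8 and 8.25 in DSS libraries at day 7, and 12.1, 15.9 and 12.6 against 13.4, 17.6, 11.6 and 13.5 at day 89. Its groups were apart at day 7 and overlapped at day 89 (interaction 1.25 ± 0.26 SE, adjusted p = 0.316). Srcin1 and Prcd were among the 5 genes that limma called lower at day 7 (adjusted p = 0.0491 for both); the other called genes of day 7, Gm36738, 9330104G04Rik and Gm12490 (lower) and Gm10131 (higher), carry no functional name. Hspe1, the mitochondrial co-chaperonin, held 199, 302 and 272 FPKM in controls and 148, 152, 127 and 125 in DSS libraries at day 7. Its groups were apart there and overlapped at day 89 (difference -0.88, then 0.12, interaction 1.00). Rec8, a meiotic cohesin subunit, had an interaction of 1.49, and Tbrg1, a growth inhibitory nuclear protein with acute only higher DSS values, -1.25. Over the 20 heat shock and chaperone genes, 18 were below 0 at day 7 and 3, Hspe1 among them, were below 0 at day 7 and above 0 at day 89. The list median was -0.15 at day 7 and -0.16 at day 89 (interaction -0.04). At an unadjusted p under 0.05, 1 of 20 was higher, against 4.37% of all genes.

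Oocyte genes stood higher with DSS at day 7, and less so at day 89. All 30 listed genes were above 0 at day 7 and 21 of 30 at day 89, and all 30 interactions were below 0, against 9156 of 18006 (50.8%) among all genes. The median was 0.51, then 0.16 (interaction -0.40, and -0.23 without control replicate R126 of day 89). At an unadjusted p under 0.05, 2 of 30 were lower, against 4.08% of all genes. Uchl1, a deubiquitinase abundant in oocytes, held 82.6, 53.2 and 62.3 FPKM in controls and 196, 159.7, 154 and 93.8 in DSS libraries at day 7, and 46.4, 84.2 and 64 against 38.8, 74.8, 38 and 46.1 at day 89. The day 7 groups were apart and the day 89 groups overlapped (interaction -1.56 ± 0.41 SE, limma adjusted p = 0.422). Kit, the receptor through which granulosa cells act on oocytes and theca, had an interaction of -1.20. The zona pellucida genes Zp2 and Zp3 and Padi6, a protein of the egg's cytoplasmic lattices, were acute only (day 7 differences 1.32, 1.28 and 1.08), but their interactions had unadjusted p-values of 0.104, 0.123 and 0.195. The level of these genes in a piece of ovary varies with the number and stage of its oocytes, and at day 89 the list level ranged from -1.51 to -0.31 in controls and from -1.06 to -0.13 in DSS libraries. The day 7 median was 0.36 among libraries of high mitochondrial share and 1.07 among the others.

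Mitotic genes had a similar but smaller order of values. Of 25 genes, 24 were above 0 at day 7, 11 at day 89, and 24 interactions were below 0 (median -0.32, and -0.60 without DSS replicate 75 of day 7). At an unadjusted p under 0.05, 3 of 25 were lower, against 4.08% of all genes. Ccnb1, the mitotic cyclin B1, was acute only with 5.82, 2.74 and 5.67 FPKM in controls against 7.22, 10.8, 11.2 and 14.5 in DSS libraries at day 7 and a difference of 0.05 at day 89. Cdc20, an activator of the anaphase-promoting complex, and the mitotic kinesin Kif20a had interactions of -0.86 and -0.60. DSS replicate 75 stood below the other DSS libraries of day 7 for this list, and the day 7 median was -0.24 among the libraries of high mitochondrial share against 0.47 among the others, so the sign of the day 7 effect differed with that share. Mki67, the usual proliferation marker, did not follow (-0.17 at day 7 and 0.17 at day 89). The 9 replication-dependent histone genes tested had medians of -0.43 and -0.27 (interaction 0.24, 0 at an unadjusted p under 0.05).

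Most steroidogenic and cholesterol genes stood lower with DSS at day 7, with medians near 0 at day 89. Star, the protein that delivers cholesterol to the inner mitochondrial membrane in the rate-limiting step of steroid synthesis, held 234, 131 and 109.6 FPKM in controls and 41.2, 42.5, 39.7 and 33.5 in DSS libraries at day 7, and 294, 229 and 195 against 269, 316, 244 and 64.8 at day 89. All 4 DSS libraries of day 7 were below every other library, and the day 89 groups overlapped, with R89 low (difference -1.91, then -0.30, interaction 1.61 ± 0.61 SE, limma adjusted p = 0.553). Of 18 steroidogenesis genes, 14 had an interaction above 0 (list median -0.75, then -0.07, interaction 0.49, and 0.16 without control replicate 51 of day 7). Star and the 5-alpha-reductase Srd5a1 (0.89), 2 of 18, were higher at an unadjusted p under 0.05, against 4.37% of all genes. Cyp19a1, the aromatase of granulosa cells, had a large interaction of 2.31 with a wide error (1.37 SE, limma adjusted p = 0.668), and its day 7 controls were spread over 1.77, 74.6 and 7.55 FPKM. Cyp17a1, the androgen-forming enzyme of theca cells, had 2.39 ± 1.59 SE.

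Of 23 cholesterol synthesis and uptake genes, 21 were below 0 at day 7 and 13 at day 89, and 21 interactions were above 0, against 49.2% of all genes. The median interaction was 0.55, and 4 were higher and 0 lower at an unadjusted p under 0.05 (4.37% and 4.08% of all genes). Without DSS replicate R29 of day 89 the median was 0.24. Members at that level included Sc5d (1.15), Fdft1, the squalene synthase (0.83), and Mvd, a mevalonate pathway decarboxylase (1.56). Hmgcs1, which makes the HMG-CoA of this pathway, had a difference of -1.45 at day 7 and -0.47 at day 89 (limma adjusted p = 0.679 for the interaction). Luteal genes, which include Star, had medians of -0.58 and -0.33 (interaction 0.17). At an unadjusted p under 0.05, 1 of 16 was higher, Star, and 1 lower, the lipid carrier Apoe (-0.80), against 4.37% and 4.08% of all genes. The luteal day 7 median was 0.04 among libraries of high mitochondrial share and -1.17 among the others, so its sign differed between them.

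**Figure D4:**
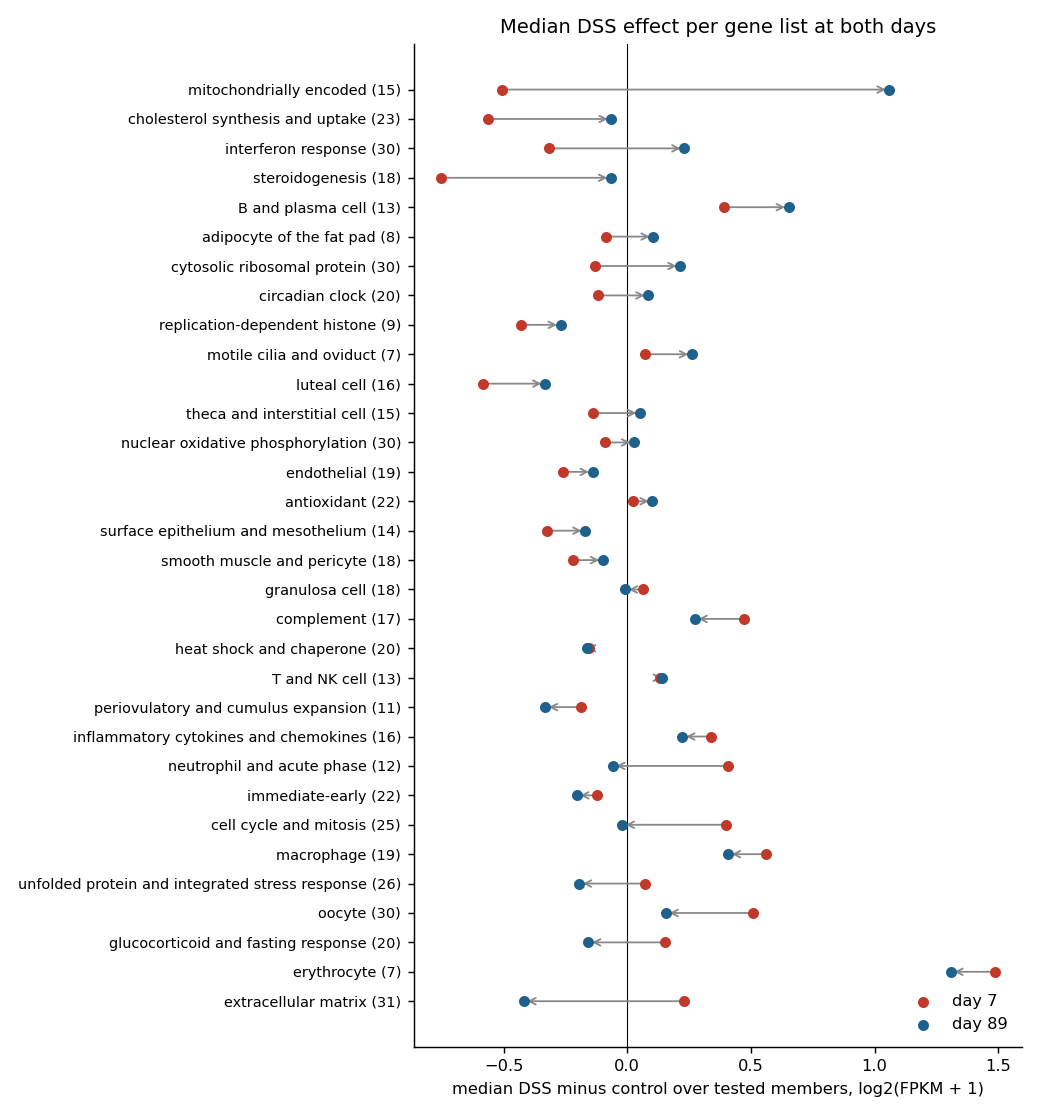
Median over tested members (number in brackets) of DSS minus control on the log2(FPKM + 1) scale at day 7 (red) and day 89 (blue), with an arrow from day 7 to day 89, for the 32 gene lists with at least 3 tested members, ordered by the median interaction. Interferon response crosses from -0.32 to 0.23 and extracellular matrix from 0.23 to -0.42, while macrophage and B and plasma cell genes stay on one side of 0.

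Of 20 clock genes, 14 had an interaction above 0 and 6 below 0. Nfil3, a repressor that binds D-box elements of clock output genes, held 2.66, 2.27 and 3.51 FPKM in controls and 4.62, 8.30, 7.35 and 5.05 in DSS libraries at day 7, and 7.85, 7.02 and 7.32 against 4.76, 4.42, 5.05 and 6.62 at day 89. DSS libraries were all higher at day 7 and all lower at day 89 (difference 0.92, then -0.45, interaction -1.37 ± 0.27 SE, limma adjusted p = 0.316). Arntl, the core activator, had an interaction of -0.60. Interactions above 0 were held by the period gene Per3 (0.81), the D-box activator Tef (0.63) and the repressor Ciart (0.77). In all, 3 clock genes had a higher and 2 a lower effect at day 89 at an unadjusted p under 0.05 (4.37% and 4.08% of all genes; list median -0.12, then 0.08). These genes vary with the hour of the day, which the labels do not give, and its part in these values was not tested.

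Of 26 genes of the unfolded protein and integrated stress response, 22 had an interaction below 0, against 50.8% of all genes. The median was -0.36, and -0.17 without the libraries of high mitochondrial share. The day 7 median was 0.07 over all libraries, -0.10 among those of high share and -0.03 among the others. At an unadjusted p under 0.05, 3 were lower and 1 higher, against 4.08% and 4.37% of all genes. The secretory regulator Xbp1 had 27.5, 21.9 and 28.6 FPKM in controls and 29.4, 60.03, 50.9 and 60.3 in DSS libraries at day 7 and a difference of -0.14 at day 89 (interaction -1.02). Its replicate 75 stood close to the controls. Phgdh, which commits glucose carbon to serine, had an interaction of -0.95 and Pdia4, a disulfide isomerase, -1.27; the member with a higher effect was Atf4, a transcription factor of the integrated stress response (0.51). Of 20 glucocorticoid and fasting response genes, 14 had an interaction below 0 and 6 above 0 (list median 0.15, then -0.16, interaction -0.45). That interaction median was -0.21 without the libraries of high mitochondrial share. At an unadjusted p under 0.05, 2 were lower, Angptl4 and Txnip (-0.68), an inhibitor of glucose uptake. At that level 1 was higher, Klf15 (0.64), a fasting-induced transcription factor whose DSS libraries all exceeded the controls at day 89. The 22 antioxidant genes had an interaction median of 0.14, with 1 higher at that level, the lipid peroxidase Gpx4 (0.65). The 22 immediate-early genes had one of -0.20, which was 0.27 without the libraries of high mitochondrial share. At the same level 1 of them was lower, the stress-induced Ier3 (-1.24).

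Ribosomal protein and mitochondrial genes had interactions above 0, in libraries whose make-up also differed. Of 30 cytosolic ribosomal protein genes, 29 were above 0 (median 0.35), led by Rpl38 (1.20) and Rps29 (1.10). At an unadjusted p under 0.05, 5 were higher and 0 lower, against 4.37% and 4.08% of all genes. Ribosomal protein genes are short and have many processed copies in the genome, and the list median was 0.03 under quantile normalization. The 15 mitochondrially encoded genes had the largest median interaction of the lists, 1.36, with 0 at an unadjusted p under 0.05, and a median of -0.10 without the 3 libraries of high mitochondrial share. Their day 7 median was -0.51 over all libraries, but 0.46 among the libraries of high share and 1.03 among the others. mt-Co1, a subunit of cytochrome c oxidase, ran from 25312, 4629 and 35258 FPKM in the day 7 controls and 44061, 8366, 9922 and 10114 in the day 7 DSS libraries to 5767, 1416 and 4809 and 5834, 7232, 6411 and 6392 at day 89. Its lowest value was that of control R124, and all DSS libraries of day 89 lay above the controls. Of 30 nuclear oxidative phosphorylation genes, 3 were higher at an unadjusted p under 0.05, Cox6c (0.64), Cox7c (0.66) and Ndufb9 (0.59), and 0 lower (4.37% and 4.08% of all genes). The list median was 0.16.

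Kept differences were few. Of the 13 genes with DSS higher at both days, Igkc was the only one with an unadjusted interaction p under 0.05. Mgst3, a microsomal glutathione transferase, held 13.7, 8.73 and 10.1 FPKM in controls and 15.3, 33.1, 31.2 and 33.4 in DSS libraries at day 7, and 16.9, 8.38 and 13.7 against 17.9, 29.1, 19 and 19.9 at day 89. The DSS libraries were above the controls at both days, with replicate 75 lowest at day 7 (difference 1.26, then 0.71). Snrpd3, a core protein of spliceosomal small nuclear ribonucleoproteins, had differences of 0.86 and 0.56. The set also held the Fc receptor Fcgr4 (1.08, then 2.55, where library R29 alone stood at 202 FPKM), the proteasome subunit Psmb2, the cytokine Mif and the cyclophilin Ppia. Of the 5 with DSS lower at both days, Adamts1, a protease needed for ovulation, held 12.5, 7.66 and 4.53 FPKM in controls and 2.77, 4.29, 3.81 and 2.85 in DSS libraries at day 7, and 37.1, 20.1 and 14.6 against 10.2, 11.2, 12.3 and 11.4 at day 89. Its difference was almost the same at both days although both arms stood higher at day 89 (-0.98 and -0.92; interaction 0.06, 95% interval -0.85 to 0.97). The sign of this interaction depended on the libraries used, from -0.26 without control replicate 10 of day 7 to 0.42 without control replicate R123 of day 89. Edn2, an endothelin made at ovulation, had -0.50 and -1.22, and the zinc finger gene Zfp251 -0.51 and -0.53. Adamts4 (-0.88) alone of the 11 periovulatory genes tested had an unadjusted p under 0.05, where 4.08% of all genes were lower (list median -0.08).

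The lists for the remaining ovarian cell types had small median interactions. Counts given for them are at an unadjusted p under 0.05, where 4.37% of all genes were higher and 4.08% lower. Granulosa genes stood at 0.06 and -0.01 (interaction 0.02; 1 of 18 at an unadjusted p under 0.05, the granulosa identity factor Foxl2, 0.58), and theca and interstitial genes had 0.17 (0 of 15). Smooth muscle and pericyte genes had 0.06, with the intermediate filament gene Des (0.85) and calponin Cnn1 (0.67) higher, 2 of 18. Endothelial genes had 0.15, with the sialomucin Emcn (0.75) and the growth factor Vegfa (0.79) higher, 2 of 19. For markers of tissue around the ovary, 0 genes had an unadjusted p under 0.05: surface epithelium and mesothelium 0.13 (14 tested), motile cilia and oviduct 0.20 (7 of 20 tested) and adipocytes 0.41 (8 of 16). The 7 erythrocyte genes tested stood higher with DSS at medians of 1.49 and 1.31 (interaction -0.49, 0 of 7 at an unadjusted p under 0.05, and 0.75 without the libraries of high mitochondrial share). Hemoglobin genes vary with the blood left in a sample, and their near-identical copies share reads.

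Depth was even, at 15256018 to 18505144 recovered reads per library. Mitochondrially encoded genes took 9.96% to 14.2% of reads in control replicates 10 and 53 and DSS replicate 75, all of day 7, and 0.479% to 4.04% in the other 11. Without these 3, day 7 has 1 control, which is assumed to vary like the other groups. Without DSS replicate 75 alone, limma called 41 genes for the interaction, 23 higher and 18 lower. Of these, 7 are named here (Angptl4, Srcin1, Cd276, Nfil3, S100a8, Tbrg1 and Xbp1). Among them, S100a8 passed the filter only through the DSS libraries of day 7. Genes in the lowest length quartile stood higher relative to those in the highest at day 7 than at day 89, by their mean centred log2 values: 0.119 to 0.418 at day 7 and -0.381 to -0.240 at day 89, with R38 (0.107) apart from the other day 89 libraries. The part of these differences between libraries in the other values was not tested.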

How the data were processed

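RNA-seq of 14 mouse ovary libraries was deposited as FPKM per gene in 1 column per library; the authors aligned reads with HISAT2 2.0.5 to GRCm38, per the submitters' processing notes. For the counting tool, annotation and strand handling, nothing is given in the sources used here. Gene positions in the deposited table do not match GRCm38, so gene coordinates were taken from GENCODE M21 by gene ID (17366 of 18006 tested genes matched), and promoter windows from RefSeq (GRCm38.p6).

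Of 56748 genes, 18006 with at least 0.5 FPKM in at least 3 libraries were tested on log2(FPKM + 1) with limma 3.58.1 (limma-trend, R 4.3.3) over all 4 groups without covariates, and p-values were Benjamini-Hochberg adjusted over all tested genes at 0.05. The fit was also run on simulated reads with a fixed spread and no differences in make-up between libraries. That run does not show how the fit behaves at the spread of these libraries. Deposited FPKM times gene length came out in whole multiples of 1 read for 100% of values (tolerance 0.01 of a read, checked below 300 reads), which gave the depth of each library and the reads used for limma-voom as an alternative. Libraries with 5% or more mitochondrial reads are called libraries of high mitochondrial share.

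Named genes were the 8 with the smallest interaction p in each direction, up to 3 per pattern and direction and up to 3 per list, with a mean of at least 1 FPKM in at least 1 group, leaving out predicted, clone, pseudogene and small RNA symbols. Values of some genes that meet this rule are not reported here. Other list members and unnamed genes given beside them were chosen after their values were seen. The comparison and the 33 gene lists (670 genes, 668 matched) were chosen with earlier results of these data known. Reads of near-identical copies (Ifit3 and Ifit3b, hemoglobins, immunoglobulins, ribosomal protein genes and their pseudogenes) may have been split, and antisense overlaps cannot be told apart. Alternatives were other pseudocounts, filters, scalings, spread models, voom, a gene length correction, treatment of the high-share libraries and leaving out each library.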

Additional observations from a re-analysis of the deposited data

Results flagged for a closer look

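In groups of 4 libraries, a value was singled out when its gap to the nearest of the other 3 took more of the group's range than the 95% critical value of Dixon's test, which chance gives in about 1 in 20 groups. This was met by 14 of 152 groups examined for named genes and by 9 of 64 examined for list levels. DSS replicate 75 of day 7, a library of high mitochondrial share, accounted for most of the day 7 cases. It was low in Mgst3 (15.3 FPKM, the other 3 between 31.2 and 33.4), Cdc20 (10.3 against 20.4 to 23.4) and Snrpd3 (17.5 against 26.9 to 27.2). It was high in Ighm (9.37 against 5.26 to 5.61) and S100a9 (63.9 against 6.54 to 8.40). Its list levels were low for cell cycle and mitosis (-0.46, the others 0.29 to 0.43), the unfolded protein and integrated stress response (-0.34 against 0.04 to 0.09) and surface epithelium and mesothelium (-0.40 against 0.43 to 0.60). They were high for T and NK cell genes (0.48 against -0.11 to -0.03), mitochondrially encoded genes (2.45 against -0.14 to 0.26) and adipocyte genes (0.21 against -0.52 to -0.49).

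DSS replicate 82 of day 7 stood above the others in Gbp3 (8.41 FPKM against 5.29 to 5.46) and in the interferon response level (-0.00545, the others -0.23 to -0.22). DSS replicate 80 was low in Srcin1 (1.60 FPKM against 2.21 to 2.34). At day 89, DSS replicate R38 was high in Rpl38 (223.9 FPKM against 141.5 to 149.5), Ifi27 (125 against 88.3 to 93.6) and Cox6c (71.9 against 45.6 to 48.4), and low in Phgdh (16 against 19.4 to 20.02) and Zfp251 (7.66 against 11.3 to 12.1). DSS replicate R89 was low in Star (64.8 FPKM against 243.5 to 316) and stood apart in the granulosa level (0.62, the others -0.20 to -0.09) and in the glucocorticoid and fasting response level (-0.11 against -0.03 to -0.01). DSS replicate R78 held 1.99 FPKM of S100a9, where the others held 0 to 0.12.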

How the results depend on the processing

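The alternatives were followed for 76 named genes. These were the genes named by p-value or pattern and the named list members with an unadjusted interaction p under 0.05. Of the 76, 73 kept the sign of their interaction in all 26 alternatives, and the exceptions were the kept genes Adamts1, Zfp251 and Olfr558. Apart from the kept genes, the 76 were picked for small interaction p-values in these same data, which favours a stable sign. Adamts1 (0.06) was -0.115 with sample weights, -0.0118 without the high-share libraries and -0.26 (without control 10) to 0.417 (without control R123) when 1 library was left out, below 0 in 5 of these. Zfp251 was 0.0308 with sample weights, 0.31 without the high-share libraries, 0.0467 with a covariate for them and -0.196 (without control R123) to 0.147 (without control 10) when 1 library was left out, above 0 in 4 of these. Olfr558 was -0.0208 without control 51 to 0.429 without control 10. Over all alternatives it reached 0.555, and its sign turned in 1. Of 32 lists, 18 kept the sign of their median interaction. It turned in 11 alternatives for T and NK cell, 10 for granulosa, 5 for heat shock, 4 each for complement and surface epithelium, 3 each for immediate-early (0.27 without the high-share libraries) and erythrocyte, 2 each for periovulatory and smooth muscle, and 1 each for macrophage (0.09 with sample weights), mitochondrially encoded, endothelial, theca and motile cilia genes. Counts of called genes were unstable, and the cause was not tested. The interaction had 4226 calls with sample weights (weights from 0.213 for DSS replicate 75 to 5.40 for control replicate 53), 2 without a filter and 3 without the libraries of high mitochondrial share. Unadjusted p-values under 0.05 numbered 6862 and 2695 in the first and last of these. Calls at day 7 were 2 and 1 with pseudocounts of 0.1 and 0.5, 7133 with sample weights, 3 with a robust prior, 0 with voom, 915 without the high-share libraries and 20 with a covariate for them. Calls at day 89 were 5 without a filter, 92 with sample weights, and 0 with a pseudocount of 0.1, a filter of 1 FPKM, voom, no high-share libraries or the length trend removed.

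Acute only genes numbered 238 and 174 with pseudocounts of 0.1 and 0.5, 261 with voom and 850 without the high-share libraries. Late only genes numbered 60 (pseudocount 0.1), 11 (sample weights), 73 (voom) and 10 (no high-share libraries), reversed genes 15, 9 (pseudocounts), 16 (voom) and 21 (no high-share libraries), and kept genes 32 (pseudocount 0.1), 4 (sample weights), 34 (voom) and 154 (no high-share libraries). Leaving out each library gave 0 to 41 calls for the interaction (1059 to 2866 unadjusted), 0 to 1221 at day 7, 0 to 2 at day 89, 78 to 330 acute only, 16 to 85 late only, 6 to 26 reversed and 12 to 71 kept genes, a Spearman rho of -0.0857 to 0.251 and an equal sign in 46.4% to 59.3% of genes. Groups fail to overlap more easily when they hold fewer libraries, so pattern counts with libraries left out cannot be compared directly with the main counts. This holds most without the high-share libraries, where day 7 has 1 control. The higher acute only, reversed and kept counts there therefore do not show that these libraries hid differences. The highest interaction and day 7 counts came without DSS replicate 75. Day 7 had 41 calls without control replicate 10 and 14 without R38, and late only genes were 85 without control R123 and 46 without R126. Without control R124 rho was -0.0596 and 47.4% of genes had an equal sign; without control replicate 51 these were -0.0857 and 46.4%. No paired analysis was possible because no replicate number recurs between groups.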
